A study of Mus musculus with 8 samples.

Results

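The 4 genes described here, Spry2, Il17rd, Fgf18 and Sp8, belong to fibroblast growth factor (FGF) signalling in the early forebrain or to the transcriptional programme linked to it. They were represented by 5 probe sets, 2 for Spry2 and 1 for each of the others, out of 45037 probe sets on the array after its 64 controls were set aside. The probe sets were taken by their current gene symbol from the authors' deposited table of 330 probe sets, the only table used here that pairs probe sets with genes. That table, in which 4 of 247 genes with a symbol are these, keeps probe sets that differ between the same 2 genotypes on PLIER signals by 1.5-fold or more with an unadjusted p no higher than 0.05, and it lists 0.423% of all probe sets as lower in VEGF120. The genotype difference of these genes is therefore what chose them, and it is given below as a description with no test. Of the 5 probe sets, 5 lay above the brightness filter, a mean signal of 39.8 over all arrays, which 27022 probe sets passed.

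RNA came from forebrain microdissected from mouse embryos at E9.5, on a C57Bl/6 background, and was hybridised to Affymetrix mouse genome arrays. Embryos of the 4 VEGF120 arrays carry a knock-in of the cDNA for the VEGF120 isoform of VEGF-A, the main growth factor of blood vessels, and express only that isoform, without VEGF164. Those of the 4 wild type (WT) arrays carry the unmodified gene. The labels do not say whether an array stands for 1 embryo, a litter or a pool, so the spread between arrays may be technical in part. In whole dissected tissue, fewer cells of a type and less RNA per cell cannot be told apart.

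FGF ligands are secreted and bind receptor tyrosine kinases together with heparan sulfate, which switches on the Ras and ERK kinase cascade inside the receiving cell. ERK activity turns on ETS transcription factors and also a set of feedback inhibitors, among them the Sprouty proteins and Il17rd, which damp the same cascade. In the forming forebrain the anterior neural ridge is an FGF source that patterns the telencephalon, and Sp8 is a zinc finger transcription factor of that region that sustains FGF expression. Fgf18 is a secreted ligand of this family.

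In VEGF120 forebrain all 4 genes had a lower mean signal than in WT. The difference was 2.04-fold for Spry2 by its bright probe set, 1.82-fold for Fgf18, 1.58-fold for Sp8 and 1.36-fold for Il17rd, on the scale of log2(signal + 16). Taking the brightest probe set of each gene, the median difference was −0.76 (log2, VEGF120 minus WT) for the 4 genes and 0.04 for all 27022 tested probe sets. Each of the 4 was lower, against 42.7% of all tested probe sets. For 3 of the 4 every VEGF120 array lay below every WT array, against 1.78% of all tested probe sets. Since the genes were chosen on this contrast, nothing is read from these shares.

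The promoter windows of the 4 genes are shown as a description, and the shared direction of the genes restates how they were chosen. The letters of a core ETS motif, CCGGAA, and of a GC box, GGGCGG, are in capitals on either strand. A GC box is the kind of site that zinc finger factors of the Sp family bind. Each window runs from 250 bases before to 50 after the annotated start, 5′ to 3′, from RefSeq on GRCm38.p6. All 4 genes matched the RefSeq table. Sp8 has 3 windows there, and the one holding a GC box is printed.
Spry2 (chr14:105896770-105897069, - strand): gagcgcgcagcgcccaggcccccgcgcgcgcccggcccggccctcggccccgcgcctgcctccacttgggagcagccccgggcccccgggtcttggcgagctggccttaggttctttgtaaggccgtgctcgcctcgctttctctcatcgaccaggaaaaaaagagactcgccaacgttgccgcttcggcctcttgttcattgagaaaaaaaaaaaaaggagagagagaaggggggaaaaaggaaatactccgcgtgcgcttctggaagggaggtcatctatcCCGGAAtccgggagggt
Il17rd (chr14:27038751-27039050, + strand): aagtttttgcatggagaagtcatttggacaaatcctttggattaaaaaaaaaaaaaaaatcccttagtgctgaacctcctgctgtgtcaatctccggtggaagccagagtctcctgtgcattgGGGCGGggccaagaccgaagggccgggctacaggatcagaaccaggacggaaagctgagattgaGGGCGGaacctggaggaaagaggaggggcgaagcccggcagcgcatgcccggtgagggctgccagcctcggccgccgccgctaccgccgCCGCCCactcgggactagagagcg
Fgf18 (chr11:33147351-33147650, - strand): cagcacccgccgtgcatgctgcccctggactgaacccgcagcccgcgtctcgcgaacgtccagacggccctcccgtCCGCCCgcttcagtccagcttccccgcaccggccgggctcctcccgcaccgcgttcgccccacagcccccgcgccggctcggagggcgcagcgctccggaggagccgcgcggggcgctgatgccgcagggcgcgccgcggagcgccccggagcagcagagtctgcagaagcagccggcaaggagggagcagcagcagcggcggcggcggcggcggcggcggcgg
Sp8 (chr12:118846983-118847282, + strand): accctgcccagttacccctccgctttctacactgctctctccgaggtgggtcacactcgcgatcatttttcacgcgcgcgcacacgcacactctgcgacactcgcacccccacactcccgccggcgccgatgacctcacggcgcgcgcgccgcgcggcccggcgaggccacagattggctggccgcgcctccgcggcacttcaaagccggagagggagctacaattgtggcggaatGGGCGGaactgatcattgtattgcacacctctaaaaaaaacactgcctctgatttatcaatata

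The Spry2 window held 1 ETS match, in the direction of transcription and beginning at base 34 after the start, and no GC box. The Il17rd window held 3 GC boxes, beginning 127 and 63 bases before the start and, on the opposite strand, at base 27 after it. The Fgf18 window held 1 on the opposite strand, 174 bases before the start, and the printed Sp8 window 1 at 14 bases before the start. Matches to the ETS motif and to the GC box shared no bases in any of the 6 windows. Among 32841 RefSeq windows of 300 bases, 14.9% held the ETS motif and 35.7% the GC box, so neither is rare. The 4 printed windows thus have no single one of these motifs in common. The Fgf18 window was the richest in G and C, at 78.7%, above 98.4% of all windows, and the other printed windows ranged from 58.3% to 62.7%. The Sp8 windows not printed were at 43% and 53% and held neither motif. A match of letters describes the sequence and does not show a bound site.

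Fgf18, the ligand among the 4, had signals of 45.9, 70.4, 8.34 and 76.4 on VEGF120 replicates 1 to 4, against 119, 79.9, 102 and 71.3 on WT replicates 1 to 4. The groups overlapped by a small margin, since VEGF120 replicate 4 read above WT replicate 4. The mean was 5.88 ± 0.89 in VEGF120 and 6.75 ± 0.29 in WT (SD, n = 4 each, on the log2(signal + 16) scale), and VEGF120 minus WT was −0.87 ± 0.37 (SE, limma). The probe set was dim, with a mean signal of 71.7 over all arrays and 50.3 in VEGF120. VEGF120 replicate 3 stood far below the other arrays, at a signal under the filter value of 39.8, and without it the difference was −0.44. Adding 64 instead of 16 before the log gave −0.49, and adding 1 gave −1.22. After quantile normalization or median centring, the genotypes no longer overlapped, with a gap of 0.06 (quantile) or 0.07 (median) between the lowest WT and the highest VEGF120 array (log2). The spread within VEGF120 was large: 1.63% of tested probe sets had a larger SD there, while 31.7% had a larger SD within WT.

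**Figure D1:**
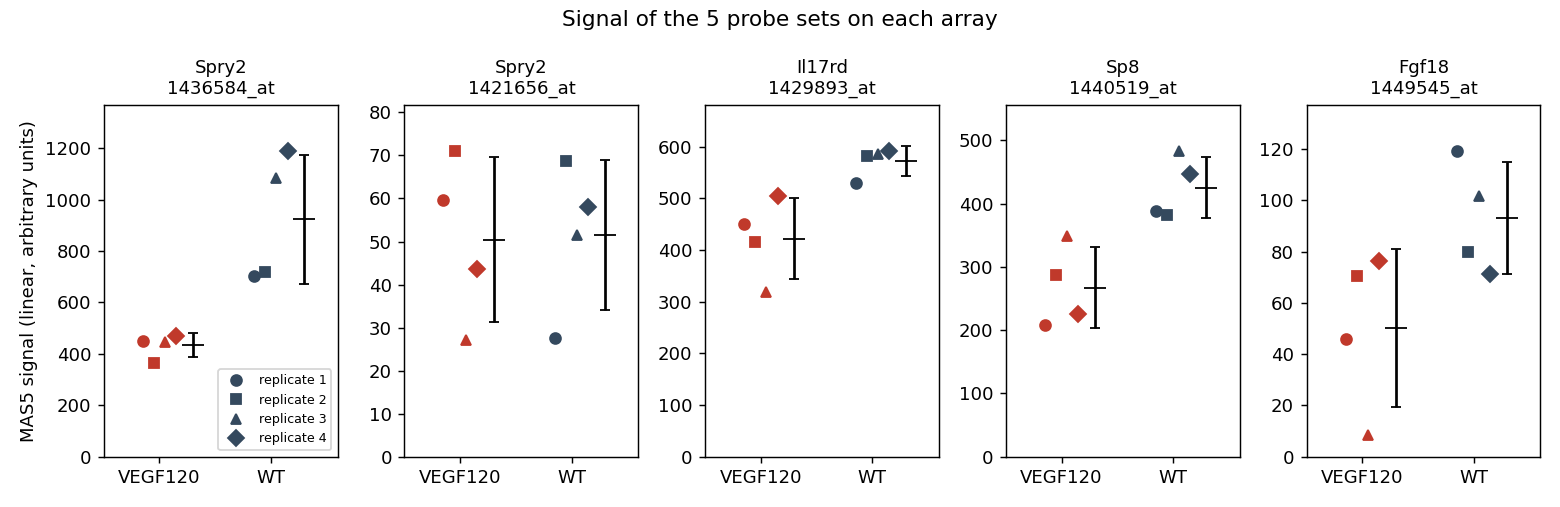
MAS5 signal (linear scale, vertical axis from 0, a separate scale for each probe set) of the 5 probe sets on the 4 VEGF120 (red) and 4 WT (dark) arrays; symbols mark the replicate number and the bar beside each group is the mean ± SD. Spry2 by probe set 1436584_at, Il17rd and Sp8 do not overlap between genotypes, Fgf18 overlaps by 1 pair of arrays, and Spry2 by probe set 1421656_at overlaps throughout.

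Spry2, an intracellular inhibitor that is induced by FGF and other receptor tyrosine kinase signals and dampens them, was measured by 2 probe sets. On the brighter, 1436584_at, at the 88.4th percentile of brightness, VEGF120 arrays read 452, 366, 448 and 469 and WT arrays 703, 718, 1084 and 1191. Every VEGF120 array lay below every WT array, with a gap of 0.57 (log2) between the nearest arrays, the widest gap of the 5 probe sets. The VEGF120 arrays lay close together, with a coefficient of variation of 10.6%, against 27.1% for WT. The WT arrays formed a lower pair, replicates 1 and 2, and a higher pair, replicates 3 and 4. The mean was 8.81 ± 0.15 in VEGF120 and 9.84 ± 0.39 in WT (log2(signal + 16), SD, n = 4 each). The difference, −1.03 ± 0.17 (SE, limma), stayed between −1.15 and −0.90 when any 1 array was left out. By size it was the 27th most negative difference of the 27022, a rank on the contrast that chose the probe set. The same rank was 50 for Fgf18, 161 for Sp8, 585 for Il17rd and 10151 for the other Spry2 probe set.

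The second Spry2 probe set, 1421656_at, did not share this pattern in the MAS5 signals. It read 59.6, 71.1, 27.1 and 43.7 on the VEGF120 arrays and 27.5, 68.7, 51.6 and 58.0 on the WT arrays. The highest and the lowest of the 8 were both VEGF120 arrays. The mean was 6.00 ± 0.44 in VEGF120 and 6.03 ± 0.42 in WT (SD, n = 4 each, on the log2(signal + 16) scale), and VEGF120 minus WT was −0.03 ± 0.30 (SE, limma). Its direction was not stable, since it turned to 0.16 without VEGF120 replicate 3. Its mean signal was 50.9, near the filter of 39.8. In the authors' deposited table, which summarises the same probe set with PLIER, its group mean was 6.03 with an SD of 0.06 in VEGF120 and 6.89 with an SD of 0.19 in WT (log2). That is the smallest VEGF120 SD of the 5 probe sets in that table, and the fold there was 1.82 lower, close to the 1.93 of 1436584_at. The 2 probe sets thus gave the same direction and nearly the same size in PLIER signals. In MAS5 signals 1436584_at was lower in VEGF120, while 1421656_at was near 0 with no stable direction. The array columns behind the PLIER means match no label, so whether they are the same 8 arrays was not tested. Taking the mean of both in MAS5 signals gave a Spry2 difference of −0.53.

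Set against the WT mean of each probe set, the bright Spry2 probe set minus the dim one gave −1.17, −1.67, −0.38 and −0.78 (log2) on VEGF120 replicates 1 to 4. On the WT arrays it gave −0.69 on replicate 2 and 0.22 to 0.24 on the other 3. The 2 probe sets were closest on VEGF120 replicate 3 among the VEGF120 arrays, where both were below the WT mean. Target positions of the 2 probe sets within the transcript are not analysed here.

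**Figure D2:**
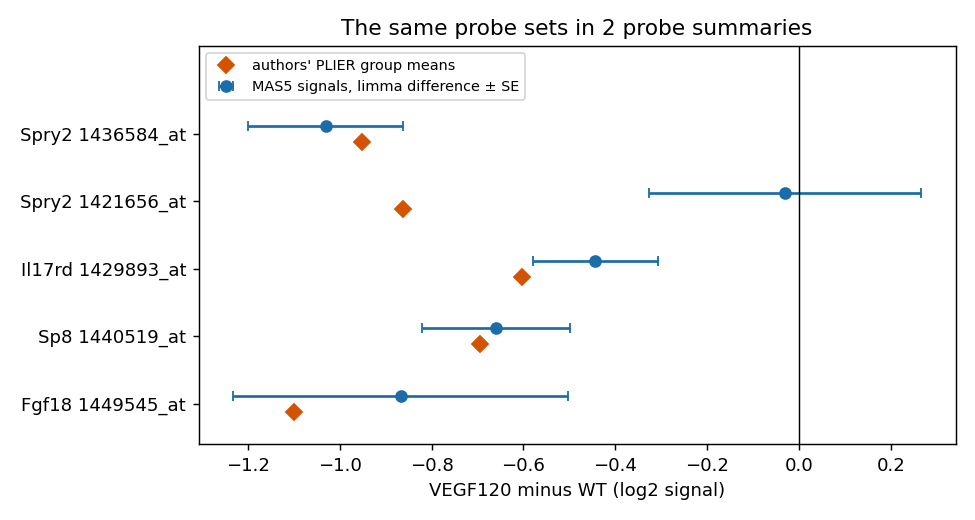
Difference between genotypes (VEGF120 minus WT, log2 signal, horizontal axis) of each probe set in the MAS5 signals (circles, limma difference ± SE from 4 against 4 arrays) and from the PLIER group means of the authors' deposited table (diamonds, no error of their own). Spry2 1421656_at is the probe set where the summaries part, at −0.03 in MAS5 and −0.86 in PLIER. Among the other 4 the widest distance is that of Fgf18, at −0.87 in MAS5 and −1.10 in PLIER. That distance depends on the value added before the log, since the MAS5 difference of Fgf18 was −1.22 with 1 added and −0.49 with 64 added.

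Il17rd, also called Sef, is a membrane protein that inhibits FGF receptor signalling. Its VEGF120 arrays read 450, 416, 318 and 504 and its WT arrays 530, 582, 586 and 592. The groups did not overlap, but only narrowly, with a gap of 0.07 (log2) between VEGF120 replicate 4 and WT replicate 1. The mean was 8.76 ± 0.27 in VEGF120 and 9.20 ± 0.07 in WT (log2(signal + 16), SD, n = 4 each), and the difference −0.44 ± 0.14 (SE, limma). It was −0.32 without VEGF120 replicate 3 and −0.53 without VEGF120 replicate 4. The WT arrays agreed closely: 93.9% of tested probe sets had a larger SD within WT, against 43.2% within VEGF120. In the authors' deposited table Il17rd stood at a fold of 1.52, just inside the limit of 1.5 and 176th of the 191 lower probe sets by fold; that table lists none under the limit. Its PLIER group means there were 7.57 with an SD of 0.23 in VEGF120 and 8.17 with an SD of 0.02 in WT (log2).

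Sp8 read 209, 287, 349 and 225 on the VEGF120 arrays and 388, 382, 484 and 447 on the WT arrays. The groups did not overlap, with a gap of 0.13 (log2) between VEGF120 replicate 3 and WT replicate 2. The mean was 8.12 ± 0.32 in VEGF120 and 8.78 ± 0.16 in WT (log2(signal + 16), SD, n = 4 each), with a difference of −0.66 ± 0.16 (SE, limma). Here the authors' deposited table and the MAS5 signals differed least, with PLIER group means of 7.34 in VEGF120 and 8.04 in WT (log2), a fold of 1.62. Leaving out 1 array moved the MAS5 difference between −0.79, without VEGF120 replicate 3, and −0.56, without VEGF120 replicate 1.

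Array by array, the 4 genes shared their direction against WT but not their order within a genotype. Counting each gene by its brightest probe set, 16 of 16 VEGF120 values lay below the WT mean of their gene. Below every WT array lay 15 of 16, the exception being Fgf18 on VEGF120 replicate 4. The genes were chosen as lower in VEGF120, so both counts restate that choice and nothing is read from them. Of the WT values, 7 of 16 lay below their own mean, around which they scatter by construction, so this is no control for the VEGF120 count. Among the VEGF120 arrays Il17rd and Fgf18 were both lowest on replicate 3 and highest on replicate 4. Sp8 took another order, highest on replicate 3 and lowest on replicate 1, and Spry2 was lowest on replicate 2.

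VEGF120 replicate 3 shows this most plainly. There Fgf18 was 2.14 below the WT mean, Spry2 0.98, Il17rd 0.81 and Sp8 only 0.27 (log2). On VEGF120 replicate 4, Spry2 was 0.92 and Sp8 0.87 below the WT mean, while Fgf18 was 0.22 and Il17rd 0.18 below it. Among the WT arrays, Spry2 and Il17rd ranked the 4 arrays the same way, with replicate 4 highest and replicate 1 lowest, although the WT range of Il17rd was narrow. Spry2 and Sp8 were both higher on WT replicates 3 and 4 than on WT replicates 1 and 2, and Fgf18 was lowest on WT replicate 4.

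Likeness between the 4 genes was described by Pearson's r over the 8 arrays after each genotype's mean was taken away, for all 6 pairs and with no p, since the values rest on few arrays. It was 0.77 for Il17rd and Fgf18, −0.72 for Il17rd and Sp8, and −0.61 for Sp8 and Fgf18. These 3 values rested on VEGF120 replicate 3: without that array, a choice made after seeing the data, they were −0.19, −0.22 and 0.22. Spry2 had an r of 0.22 with Il17rd, 0.26 with Sp8 and −0.22 with Fgf18, and without VEGF120 replicate 3 these were 0.62, 0.29 and −0.36. No pair thus kept an r above 0.3 in size both with and without that array. With the genotype means left in, r would mostly restate the contrast that chose the genes, so it is not given for these pairs.

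**Figure D3:**
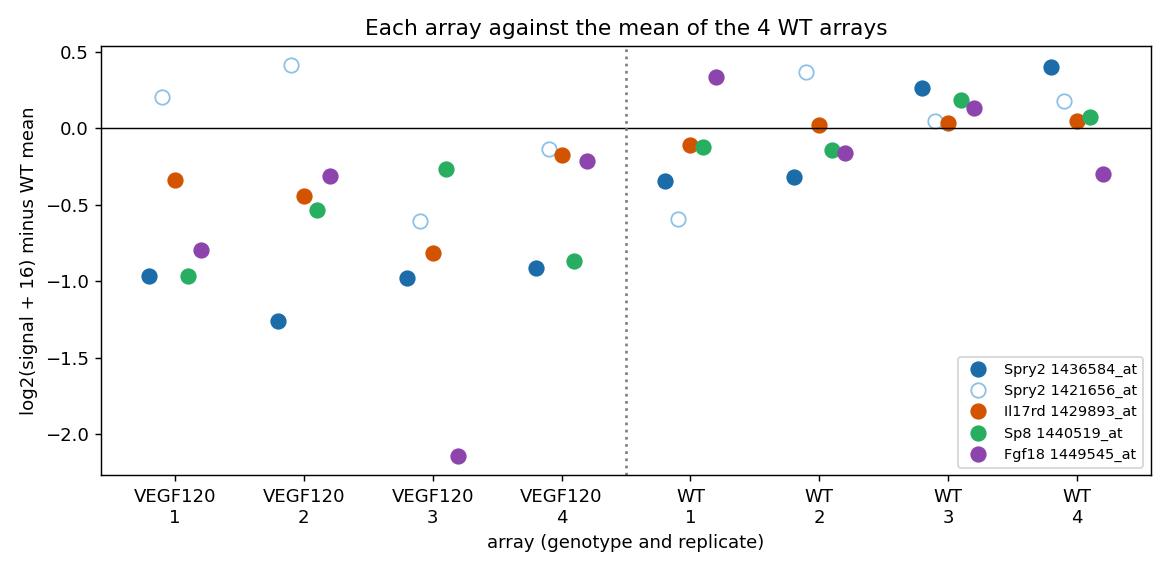
Each array's log2(signal + 16) minus the mean of the 4 WT arrays (vertical axis) for the 5 probe sets, with the VEGF120 arrays left of the dotted line and the WT arrays right of it; each point is 1 array. The filled points, 1 probe set per gene, all lie below 0 in VEGF120, with Fgf18 on replicate 3 at −2.14, while the open points of Spry2 1421656_at scatter around 0 in both genotypes.

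The genes whose pattern over the 8 arrays was most like each of the 4 were sought by Pearson's r of the log2 signals among the 95 other bright probe sets with 1 symbol in the authors' deposited table. All 95 were chosen on the genotype contrast, as the 4 genes were, so a high r is partly built in and carries no p. Closest to Spry2 were Phyhipl (r = 0.96), Lin7c, a scaffold protein of cell junctions (0.96), and Cap1, an actin-binding protein (0.94). Closest to Il17rd were Ppt1, a lysosomal enzyme, Gprc5b, a membrane receptor, and Ndnf, a secreted protein with neurotrophic action, each at 0.92. Without VEGF120 replicate 3 these fell to 0.78 for Ppt1, 0.76 for Gprc5b and 0.81 for Ndnf. Closest to Fgf18 were Zfp979 (0.93), Pax3, a paired box factor of neural crest and dorsal neural tube (0.92), and Zfp709 (0.92); without VEGF120 replicate 3 these were 0.72, 0.59 and 0.54. The nearest to Sp8 were less alike: Kbtbd8 (0.89), Lin7c (0.81) and Txnip, a thioredoxin-binding protein (0.80).

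After the mean of each genotype was taken away, which removes the contrast used for selection, the closest to Spry2 were Orc4, a subunit of the origin recognition complex (r = 0.86), Taf7, a subunit of general transcription factor TFIID (0.83), and Lin7c (0.83). Those of Il17rd were Gprc5b (0.97), Pax3 (0.88) and Dennd2d (0.85), and those of Fgf18 were Zfp979 (0.90), Pax3 (0.88) and Ndnf (0.88). Those of Sp8 were Kbtbd8 (0.72) and Lipo3 (0.69), the 2 reported here. Without VEGF120 replicate 3 the values for Fgf18 were 0.46 for Zfp979, 0.32 for Pax3 and 0.37 for Ndnf, and those for Il17rd were 0.90 for Gprc5b, 0.39 for Pax3 and 0.43 for Dennd2d. Those of Spry2 and Sp8 reported here were 0.65 to 0.88 without it. The genes named here had the highest r among 95 probe sets over 8 arrays. Their values are high in part by that choice and carry no p.

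The rest of the pathway could not be followed by name, since the authors' deposited table names only genes past its fold and p limits. Of 95 genes in lists of FGF ligands, receptors, heparan sulfate enzymes and carriers, signal transducers, feedback inhibitors, target transcription factors and genes of the anterior signalling centre, 4 were named in the authors' deposited table, and these were the 4 described. By role they were 1 of 22 ligands, 2 of 14 feedback inhibitors and 1 of 10 target transcription factors, with 0 of 7 receptors, 0 of 20 transducers and 0 of 16 heparan sulfate genes. The authors' deposited table lists 0.423% of all probe sets as lower in VEGF120 and 0.308% as higher. With shares this small, and the 4 genes chosen from that table, nothing is read from the counts by role. The other 91 are not analysed here. Across all probe sets, limma called 0 of 27022 at an adjusted p under 0.05 (Benjamini-Hochberg), 0% in either direction, and 0 were called by the unpaired test on the same values. At an unadjusted p under 0.05 limma had 2645, of which 923 were lower in VEGF120, 3.42% of those tested. The balance turned with the scaling: centring each array on its median gave 3100 lower and 607 higher, against 923 lower and 1722 higher as deposited.

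The 3 named genes of a marker list for head mesenchyme and neural crest had higher mean signals in VEGF120. They were 3 of the 13 genes used from that list, all 3 among the 0.308% of probe sets that the authors' deposited table lists as higher, and so chosen on this contrast too. Their differences were 1.05 ± 0.24 for Alx1, 0.76 ± 0.16 for Prrx1 and 0.70 ± 0.16 for Six2 (log2, VEGF120 minus WT, SE, limma), each with an adjusted p of 0.459. For Prrx1 and Six2, every VEGF120 array lay above every WT array, which held for 3.23% of all tested probe sets. These are homeobox factors of the mesenchyme around the forming face. Pax3, a neural crest and dorsal neural tube factor that is not on that list, was lower, at −0.48 (log2, VEGF120 minus WT). The summed signal of Prrx1, Six2 and Alx1 ran from 1122 to 1585 in VEGF120 and from 590.05 to 943 in WT. None of the 3 was at 0 on any array. VEGF120 replicate 3, the array lowest for Fgf18 and Il17rd, had the highest sum. On that same array Sp8 had its highest VEGF120 signal, 349, and Spry2 by its bright probe set lay 0.05 (log2) above its VEGF120 mean. The part of these markers in the lower signals of the 4 FGF genes was not tested. None of the 10 forebrain markers listed was named in the authors' deposited table, which holds only probe sets past its fold and p limits. The dissected tissue could therefore not be checked by their levels. None of the listed markers of midbrain and isthmus, surface ectoderm, endothelium, red cells or macrophages was named there either.

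The median signal was 64.7 ± 2.68 in VEGF120 and 58.1 ± 1.48 in WT (SD, n = 4 each), a difference in the array medians of 0.12 (log2) in the direction opposite to the 4 genes. Centring on the medians therefore made each of the 5 probe sets lower by that amount, with Il17rd at −0.57 and Sp8 at −0.78. The β-actin 3′ to 5′ control difference, which reflects RNA integrity and labelling length, was 0.35 to 0.69 in VEGF120 and 0.30 to 0.43 in WT (log2), highest on VEGF120 replicate 4. The same difference for the Gapdh control was −0.33 to −0.04 in VEGF120 and −0.37 to −0.29 in WT (log2), also highest on VEGF120 replicate 4. On that array Il17rd, Fgf18 and Spry2 by its bright probe set had their highest VEGF120 signals. Sp8 read 225 there, below its VEGF120 mean of 267. The part of RNA integrity and labelling length in the differences was not tested.

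**Figure D4:**
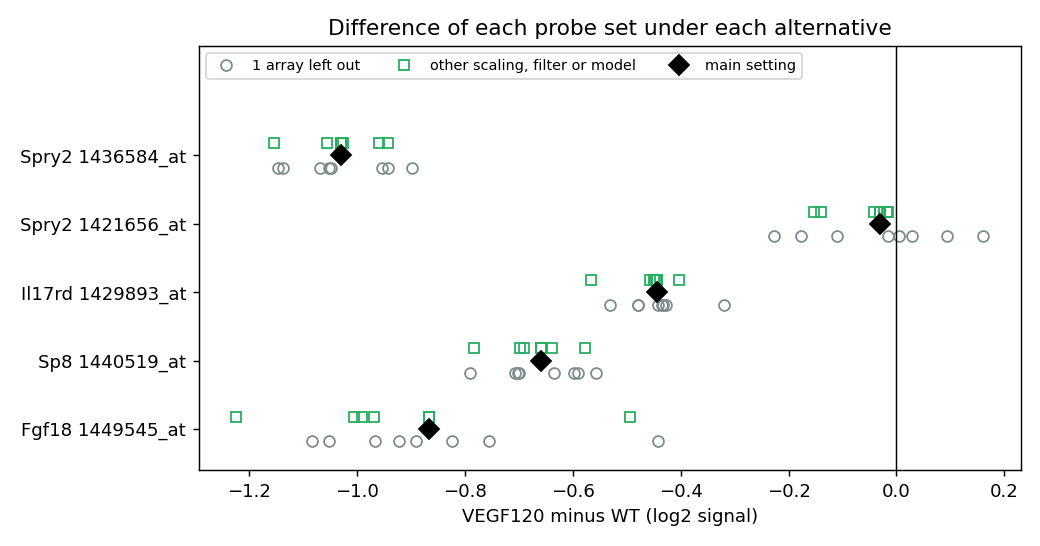
Difference between genotypes (VEGF120 minus WT, log2 signal, horizontal axis) of each probe set in the main setting (black diamonds), with 1 array left out (grey circles) and under another scaling, filter or model (green squares). Only Spry2 1421656_at crosses 0, and Fgf18 has the widest range among the other 4, from −1.22 to −0.44.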

How the data were processed

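Per the submitters' processing notes, the authors ran MAS5 (Affymetrix Expression Console). The deposited values are linear-scale intensity, 1 for each probe set on each array, without detection calls. A second deposited table, the authors' own comparison, gives an unsigned fold (ratio), unadjusted p-values, and group means and SDs of log2 PLIER signals, quantile normalized over 3 coded groups, per the file headers. The heading of the enrichment output ties the codes to WT and VEGF120. The third group and 12 per-array columns that match no label were not used. Tool versions are not given in the sources.

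The values were converted to log2(value + 16), a scale on which changes of dim probe sets come out too small. Probe sets whose mean signal did not exceed the 40th percentile were removed. limma 3.58.1 (lmFit and eBayes, trend on mean intensity, in R 4.3.3) compared the genotypes, with Benjamini-Hochberg adjustment at 0.05, and was tested on simulated data. Precision is limited by the number of arrays. Genes carry the authors' current symbol; those of like pattern were updated through Entrez identifiers in RefSeq (GRCm38.p6), which also gave the promoter windows. The rule named the 4 genes, the fixed FGF genes with the smallest p in each list (none was named here), and the 3 genes of most like pattern for each of the 4. A gene of like pattern and a marker gene are not reported here. The members and lists were chosen with earlier results of these data known. Alternatives changed the added value, scaling, filter, variance model, array weights, replicate block, test and arrays included. Figures used matplotlib 3.10.9 in Python 3.11.15.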

Additional observations from a re-analysis of the deposited data

Results flagged for a closer look

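Il17rd on WT replicate 1 stood apart from its group, at 9.09 against 9.22 to 9.25 on the other WT arrays (log2(signal + 16)). That array sets the gap of 0.07 to the VEGF120 arrays. It was the 1 such case among 22 groups of 4 arrays, which covered the 5 probe sets, the mesenchyme genes and the array measures; about 1.1 would be met by chance.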

How the results depend on the processing

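Over 18 alternatives the number of probe sets past the adjusted threshold was 0, except for 1 without VEGF120 replicate 1, so leaving out single arrays gave 0 to 1. Of 96 values of the 5 probe sets under alternatives 92 kept their direction. The other 4 were Spry2 1421656_at, at 0.09 without WT replicate 2, 0.03 without WT replicate 4, 0.004 without VEGF120 replicate 4 and 0.16 without VEGF120 replicate 3, the top of a range that begins at −0.23 when 1 array is left out. Several alternatives (filter, variance model, block, unpaired test) do not alter a difference of means, and the 3 probe sets whose genotypes do not overlap cannot turn when 1 array is left out, so this count is no measure of stability. The labels do not say whether the replicate numbers pair the arrays. Deviations of same-numbered arrays correlated over 0.1 in 1 of the 4 pairs (r from −0.13 to 0.11 across probe sets), which cannot settle it. With the replicate block 0 probe sets passed the adjusted threshold and 2365 had an unadjusted p under 0.05, against 2645 without it; without WT replicate 3 this was 1645, with 510 lower, and without WT replicate 4 the lower part was 502. Quantile normalization gave 1175 higher and 1131 lower, median centring 607 higher and 3100 lower, against 1722 higher and 923 lower as deposited. Counts for other FGF genes were not run, because none was named.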
